A study of Mus musculus with 10 samples.

Results

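Gene-body summits are points of highest RNA polymerase II (Pol II) signal that lie well inside a gene rather than at its start. They were followed here in genes of at most 50 kb, in mouse Th1 cells before and after restimulation. A summit was taken where it was in a library's deposited summit list but not in the same library's deposited table of promoter peaks, and lay over 1 kb from either end of a gene spanning at most 50000 bp and in no longer gene. The 6 libraries listed 117973 summits, of which 57269 were outside the promoter tables and 10116 met the rule. Joined within 500 bp, the 10116 summits made 5013 sites in 2175 genes. The 5013 sites were part of 38310 sites made in the same way from every listed summit, and of 25408 made from the summits outside the promoter tables. Genes above 50 kb held a further 3917 sites.

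The cells were mouse Th1 cells in primary culture. Their strain was Balb/c DO11.10, whose T cells carry a transgenic T cell receptor for an ovalbumin peptide. All 3 groups came from peripheral CD4+ T cells that were primed with anti-CD3 and anti-CD28 together with interleukin 12 and antibody to interleukin 4, expanded with an interleukin 2 analogue and then kept for a day without it. The groups were non-restimulated cells (NR) and cells that had been restimulated for either 30 min or 2 h, with 2 Pol II libraries each. Restimulation was by plate-bound anti-CD3 (5 μg/ml) and soluble anti-CD28 (2.5 μg/ml). Chromatin was precipitated with the Pol II antibody 8WG16, which is known to prefer the less phosphorylated tail of the enzyme. The labels do not say whether replicates came from separate animals or cultures, so each p-value reflects the spread of these libraries alone, part or all of which may be technical. In the promoter tables the T helper markers Cd3e, Cd3g, Cd4, Lck, Zap70 and Cd28 had peaks in every library. The Th1 markers Tbx21, Ifng, Stat4 and Il12rb2 did too, whereas the Th1 marker Cxcr3 had one in 30 min replicate 2 and 2 h replicate 2 only. Of 8 B cell markers only Ebf1 had a promoter peak, in 30 min replicate 2 and 2 h replicate 2; of 12 myeloid markers Cd68 and Cebpb had one in every library; and of 7 CD8 and NK markers 1 to 3 had one. Genes on these 3 marker lists held no gene-body site. Only genes with a promoter peak in some library could hold one, which were 1 B cell, 2 myeloid and 3 CD8 and NK markers, so this absence says little about the cells.

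Pol II gathers near the starts of many genes, where it pauses before it is released into the gene. Along the gene body the elongating enzyme is spread more thinly, and local build-ups there are known at internal start sites, at intragenic enhancers, and where elongation slows. T cell receptor signals switch on genes within minutes, the transcription factors of the immediate early response first and cytokine, receptor and feedback genes after them. On short, strongly transcribed genes the enzyme can cover the whole body, so that a peak caller joins it into a single broad peak.

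A few gene-body sites coincided with an annotated internal start. Of the 5013 sites, 29 lay within 250 bp of a RefSeq transcription start and 72 within 1000 bp, and none lay within 500 bp of a named microRNA hairpin. The RefSeq starts used did not include every gene start, so the counts near starts may be too low. At a site in Slc1a5, 9960 bp from its gene start, the nearest was that of Strn4, 24467 bp away. Of the sites in at least 5 libraries, 6 were within 250 bp of such a start, in Srebf1, Arrdc3, Wiz, Ptpa, Fam78a and Dhcr7. The windows of the 4 nearest starts are shown, because at these gene-body sites a start inside the gene is annotated at or close to the summit. Each window runs from 250 bases before to 50 bases after the start, from RefSeq on GRCm38.p6. Capitals mark CCAAT (or its reverse complement ATTGG) and GGGCGG (or CCGCCC), which do not overlap each other here.
Srebf1 internal start, chr11:60210422-60210721, minus strand: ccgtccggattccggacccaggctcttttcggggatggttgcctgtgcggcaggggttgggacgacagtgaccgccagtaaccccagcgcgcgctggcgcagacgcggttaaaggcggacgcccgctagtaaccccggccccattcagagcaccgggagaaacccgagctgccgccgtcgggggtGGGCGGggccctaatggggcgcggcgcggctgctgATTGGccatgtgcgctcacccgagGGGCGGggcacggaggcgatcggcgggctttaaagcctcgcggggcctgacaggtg
Arrdc3 internal start, chr13:80885845-80886144, plus strand: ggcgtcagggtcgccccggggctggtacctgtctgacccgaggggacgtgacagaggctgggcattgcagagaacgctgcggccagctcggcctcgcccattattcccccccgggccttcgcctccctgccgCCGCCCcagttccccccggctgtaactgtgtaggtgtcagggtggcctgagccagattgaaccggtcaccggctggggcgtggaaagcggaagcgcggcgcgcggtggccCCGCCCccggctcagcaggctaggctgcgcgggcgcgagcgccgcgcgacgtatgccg
Wiz internal start, chr17:32364414-32364713, minus strand: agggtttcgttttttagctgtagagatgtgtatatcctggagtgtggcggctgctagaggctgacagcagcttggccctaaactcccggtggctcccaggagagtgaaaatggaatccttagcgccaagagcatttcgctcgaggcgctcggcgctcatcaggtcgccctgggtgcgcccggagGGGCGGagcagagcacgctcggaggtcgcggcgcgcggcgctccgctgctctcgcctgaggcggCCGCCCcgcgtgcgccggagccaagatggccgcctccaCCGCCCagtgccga
Ptpa internal start, chr2:30441603-30441902, plus strand: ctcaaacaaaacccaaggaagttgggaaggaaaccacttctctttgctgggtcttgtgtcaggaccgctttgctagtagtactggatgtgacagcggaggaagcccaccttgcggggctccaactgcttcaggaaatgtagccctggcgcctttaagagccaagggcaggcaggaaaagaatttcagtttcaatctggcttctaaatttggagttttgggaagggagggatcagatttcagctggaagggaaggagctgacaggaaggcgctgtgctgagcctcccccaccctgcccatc
Srebf1 encodes the sterol regulatory factor SREBP-1, Arrdc3 an arrestin-domain protein, Wiz a zinc-finger partner of a histone methyltransferase, and Ptpa (Ppp2r4 in the deposited tables) an activator of protein phosphatase 2A. On either strand, CCAAT was in 37.4% and GGGCGG in 35.6% of the 32817 RefSeq start windows. The AP-1 letters TGANTCA (7.81% of windows), the CRE letters TGACGTCA (1.79%) and the E-box letters CACGTG (7.15%) were searched too and were in none of these 4 windows. The window at Srebf1 was 70.7% G or C, that at Arrdc3 72.7%, that at Wiz 66.3% and that at Ptpa 53.0%, beside a median of 52.7% over all start windows.

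The sites at these starts were present with and without restimulation. The score of a summit below is the authors' −log10 q in its own library's list; it ranks summits within a list, and no difference in score between libraries is read as a difference in Pol II. The named sites were picked by the lowest of their scores over the libraries that hold them, which orders them for description only. The Wiz site (chr17:32364461-32364575) scored 6.39 and 33.0 in NR, 12.4 and 110.1 at 30 min, and 37.2 and 93.8 at 2 h. The Arrdc3 site (chr13:80885793-80885993) scored 15.3 and 77.2 in NR, 8.03 and 83.0 at 30 min, and 29.3 and 82.0 at 2 h. The Ptpa site (chr2:30441849-30442041) scored 8.61 and 40.0 in NR, 12.4 and 53.2 at 30 min, and 24.3 and 64.8 at 2 h. The Srebf1 site (chr11:60210412-60210492) had no summit in NR replicate 1 and scored 11.2 in NR replicate 2, 6.88 and 47.1 at 30 min, and 6.36 and 18.02 at 2 h. None of the 4 sites separated the stimulated from the NR libraries.

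By summit, each stimulated library held more gene-body sites than either NR library, by a small margin in 30 min replicate 1, which was below NR replicate 2 once sites under promoter peaks were added. Sites with a summit numbered 888 and 1113 in NR, 1124 and 2713 at 30 min, and 1839 and 2155 at 2 h. Both 2 h libraries were above both NR libraries, whereas 30 min replicate 1 was almost level with NR replicate 2. As a share of each library's own list, which held 15330 to 23299 summits, gene-body summits were 4.62% and 6.37% in NR, 7.64% and 11.9% at 30 min, and 9.70% and 10.1% at 2 h. The share averaged 9.90 ± 0.281% at 2 h and 5.49 ± 1.24% in NR (SD, n = 2 each), a difference of 4.40 percentage points. At 30 min it averaged 9.74 ± 2.98% against 5.49 ± 1.24% in NR (SD, n = 2 each), a difference of 4.25 points. Both stimulated groups lay wholly above NR, which gives an exact permutation p of 0.333 (two-sided), the smallest that 2 libraries against 2 allow. With every list limited to its 15330 highest-scoring summits the groups overlapped, with differences of 0.949 points (2 h minus NR) and 1.69 points (30 min minus NR; exact permutation p = 0.667 each). The 2 h and 30 min means differed by 0.152 points (exact permutation p = 1), and this difference was 2.06 points within replicates 1 and -1.76 points within replicates 2. Against NR the difference within replicates 1 and 2 was 5.08 and 3.72 points at 2 h, and 3.02 and 5.48 points at 30 min.

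**Figure D1:**
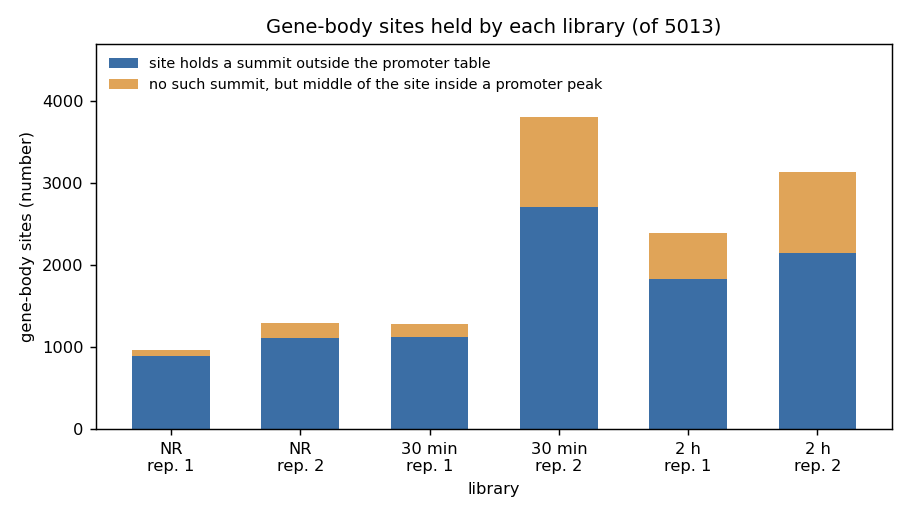
Number of gene-body sites (y axis) held by each of the 6 Pol II libraries (x axis, in time order). Blue marks sites with a summit outside the promoter table, from 888 in NR replicate 1 to 2713 in 30 min replicate 2; orange adds sites without one whose middle lay inside one of the library's promoter peaks, which brings the totals to 963 and 1293 in NR, 1285 and 3811 at 30 min, and 2399 and 3137 at 2 h.

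The libraries also differed in depth. Read counts are not in these lists. Pileup divided by fold enrichment, in whole-read steps, gave a background coverage at each promoter summit. The lowest such value in each library was 0.659 and 5.89 in NR, 1.57 and 4.65 at 30 min, and 2.48 and 5.55 at 2 h. Replicate 2 was thus the deeper library of each group, and its pileups are in scaled steps, whereas those of replicate 1 are whole numbers. The part of depth in the differences between groups was not tested. Gene-body summits were weak summits within their lists: their median score stood at percentile 20.1 to 36.9 of the library's list, against 63.5 to 74.2 for promoter summits. Low rank was shared by summits in genes above 50 kb (percentile 25.1 to 36.0) and by those outside genes (29.1 to 35.5).

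Most sites were seen once. Of the 5013 sites, 2756 (55.0%) had a summit in 1 library, and the commonest pattern was a summit in 30 min replicate 2 alone (1117 sites). A summit in all 6 libraries was found at 255 sites (5.09%), beside 9.30% of all sites outside the promoter tables and 11.3% of the sites in genes above 50 kb. The 2 NR libraries shared the most of their sites (Jaccard index 0.401), then 30 min replicate 2 and 2 h replicate 2 (0.370), while the 2 libraries at 30 min shared 0.145. The Jaccard index averaged 0.289 ± 0.131 within groups (SD, n = 3 pairs) and 0.243 ± 0.0697 between groups (SD, n = 12 pairs), which did not differ beyond the spread (exact permutation over the 15 pairings of the libraries, p = 0.267). The difference was -0.0307 without NR replicate 1.

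Genes of at most 50 kb were the more densely marked. They held 42.4 sites per Mb of searched gene body, against 16.6 per Mb in genes above 50 kb; longer genes are here only as the comparison, and the difference was not tested. Around the length limit, genes of 40 to 50 kb had 2.48 gene-body summits each and genes of 50 to 60 kb had 2.27. Of the 8311 genes of at most 50 kb in the tables, 7703 had room for a site and 2175 held at least 1; 1107 held 1, 807 held 2 to 4, and 261 held 5 or more. RefSeq matched 2173 of the 2175 host genes, 95.9% of them as protein-coding. RefSeq gave 135 of them a span above 50 kb, with 354 sites, since the deposited tables name a shorter transcript; Prdm1 and Fyb, described further on, are among them. Only genes with a promoter peak in some library are in the tables, and 35 sites lay in more than 1 gene. Whether a site is in an exon or an intron was not analysed here.

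Sites in all 6 libraries were led, by the lowest of their 6 scores, by sites in Bbc3 and Mfsd2a. Bbc3, which encodes the pro-apoptotic PUMA, had its site at chr7:16313953-16314033, 4410 bp from the gene start. It scored 55.8 and 242.9 in NR, 91.3 and 429.6 at 30 min, and 130.4 and 265.9 at 2 h. Mfsd2a, a lysophospholipid transporter, had a site at chr4:122955488-122955575 that scored 50.9 and 162.1 in NR, 71.7 and 324.3 at 30 min, and 115.2 and 202.9 at 2 h. Both were far above the median gene-body score of every library, which was 5.67 to 10.3. Batf, an AP-1 family factor of T helper cell differentiation, had one at chr12:85705517-85705671, 18874 bp into a gene of 22368 bp, that scored 37.0 and 155.5 in NR, 40.8 and 280.7 at 30 min, and 135.5 and 245.9 at 2 h. Rbl2, which encodes the pocket protein p130, scored 41.8 and 117.7 in NR, 37.2 and 194.5 at 30 min, and 59.3 and 112.0 at 2 h. Sites in Kbtbd11, Fam78a, Glipr2 and Ubxn11 were also among the 10 highest, with lowest scores of 35.4 to 40.9. Each of these sites was outside every promoter peak of the 6 libraries.

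**Figure D2:**
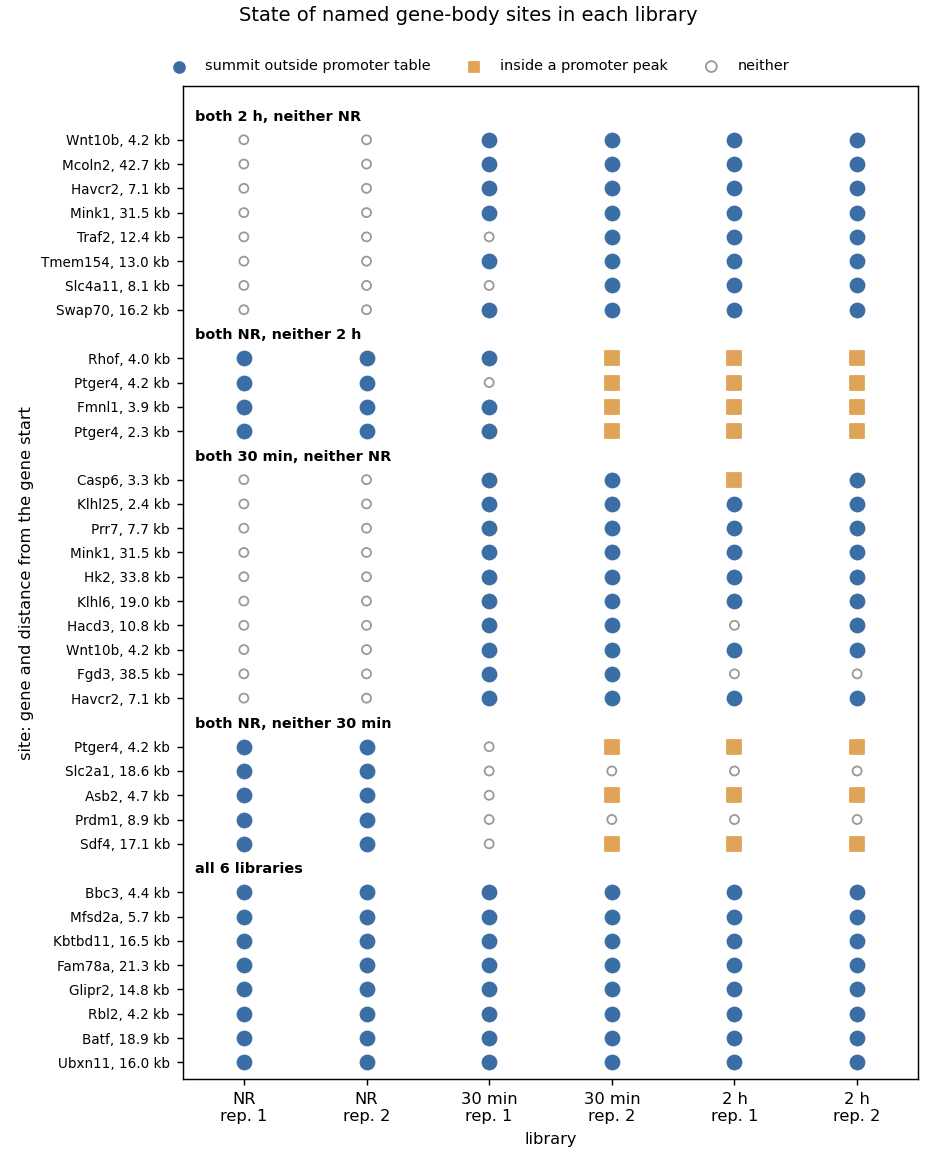
State of each named site (rows, with the gene and the distance of the site from the gene start in kb) in each library (columns, in time order): blue, a summit outside the promoter table; orange, no such summit but the site inside a promoter peak; open circle, neither. All 8 named sites of the bottom block were blue in 6 libraries, and the 4 named sites of both NR and neither 2 h library were inside a promoter peak in both 2 h libraries.

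By presence in both libraries of a group, more sites separated 2 h from NR than separated 30 min from NR. The order depended on the replicate. Within replicates 1, 1392 sites at 2 h and 644 at 30 min had a summit there and none in NR. Within replicates 2 the order was the other way, with 1484 at 2 h and 2010 at 30 min. A summit in both 2 h and neither NR library was found at 450 sites (8.98%), beside 7.62% of all sites outside the promoter tables and 8.96% in genes above 50 kb, which is close to both. The opposite, in both NR and neither 2 h library, held for 130 sites (2.59%; background 2.16%). With 2 libraries in each group no site can pass a test, and the calls are descriptions of these libraries. The 450 would be 1460 without 2 h replicate 1 and 1187 without 2 h replicate 2, since a single library then stands for 2 h. The 130 would be 326 without NR replicate 1 and 378 without NR replicate 2.

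The sites in both 2 h and neither NR library with the highest lower score included those in Wnt10b, Mcoln2, Havcr2, Mink1, Traf2, Tmem154, Slc4a11 and Swap70. Wnt10b, a secreted Wnt ligand, had a site at chr15:98772758-98772839 that scored 45.1 and 105.9 at 2 h and had no summit in NR; it also scored 8.23 and 84.8 at 30 min. Havcr2, the inhibitory receptor TIM-3, had one at chr11:46462009-46462058, 7102.5 bp from the gene start, that scored 33.1 and 88.5 at 2 h with no summit in NR, and 7.82 and 52.2 at 30 min. Both sites were thus in all 4 stimulated libraries, a pattern of 56 sites in all. Traf2, an adaptor of TNF receptors, scored 30.5 and 105.1 at 2 h at chr2:25534412-25534570 with no summit in NR or in 30 min replicate 1, and 29.6 in 30 min replicate 2. Mcoln2, an endolysosomal cation channel, scored 36.4 and 46.4 at 2 h with no summit in NR, at chr3:146192311-146192660, 42652.5 bp into the gene. Mink1, a kinase of the JNK pathway, scored 33.1 and 44.1 at 2 h with none in NR, at chr11:70594112-70594719. None of these sites lay inside a promoter peak in any library.

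Many of the sites that the NR libraries alone held by this count were not bare at 2 h. Of the 130 sites in both NR and neither 2 h library, 96 (73.8%) lay inside a promoter peak of at least 1 of the 2 h libraries and 89 (68.5%) inside one in both, which left 34 in none. Over all 5013 sites, 562 lay inside a promoter peak of 2 h replicate 1 and 984 inside one of 2 h replicate 2. A promoter peak has 1 summit in these lists, so a gene-body summit that a widened promoter peak covers is no longer listed. Rhof, a small GTPase, shows the pattern: its site at chr5:123128510-123128670, 4039 bp from the gene start, had no summit at 2 h and lay inside promoter peaks of 5136 and 5435 bp there, and scored 35.0 and 162.2 in NR. Ptger4, the prostaglandin E2 receptor EP4, had 2 such sites, under promoter peaks of 8023 and 8100 bp at 2 h; the one at chr15:5239961-5239976 scored 25.7 and 75.6 in NR. Fmnl1, a formin that builds actin filaments, had one under promoter peaks of 8348 and 8534 bp at 2 h that scored 24.4 and 92.9 in NR. The host genes of the 130 sites had a median promoter peak of 3593.5 and 4430 bp at 2 h, against 1688.5 and 1632 bp in NR. Over the host genes of any site the medians were 1525 and 1737 bp at 2 h, against 944 and 1129.5 bp in NR. Over all genes of at most 50 kb they were 1066 and 1287 bp at 2 h, against 766 and 946 bp in NR. Of the 450 sites in both 2 h and neither NR library, 2 lay inside a promoter peak of an NR library.

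Not every site followed this pattern: 34 of the 130 lay in no promoter peak at 2 h, among them sites in Slc2a1 and Prdm1. Slc2a1, which encodes the glucose transporter GLUT1, had a site at chr4:119127334-119127355 that lay in no promoter peak of any library, had no summit at 30 min or 2 h, and scored 21.6 and 53.8 in NR. Prdm1, which encodes the repressor Blimp-1, had one at chr10:44449818-44449823 that likewise had no summit at 30 min or 2 h and scored 18.1 and 40.9 in NR. The gene as a whole had 3 and 5 gene-body summits in NR, at 30 min and at 2 h alike.

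The count was therefore repeated with a library also holding a site where one of its promoter peaks covered the middle of the site, an alternative chosen after seeing the data. Sites in both 2 h and neither NR library then numbered 884 (17.6%), beside 10.7% of all sites outside the promoter tables and 12.2% in genes above 50 kb. Those in both NR and neither 2 h library numbered 36 (0.718%; background 1.16%). The latter count also fell among all sites outside the promoter tables, from 549 by summit to 294, and in genes above 50 kb, from 90 to 40. Sites were made from listed summits, of which the stimulated libraries held more than NR. The shares by this rule, and their distance from the background, were thus in part set by how sites were made. The 884 would be 1909 without 2 h replicate 1, 1322 without 2 h replicate 2, 976 without NR replicate 1 and 1185 without NR replicate 2. The 36 would be 59 and 103 without 2 h replicates 1 and 2, and 124 and 130 without NR replicates 1 and 2. Over all genes and peaks, promoter peaks had median widths of 725 and 920 bp in NR, 692 and 1184.5 bp at 30 min, and 987 and 1229 bp at 2 h; the part of depth in their width was not tested.

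**Figure D3:**
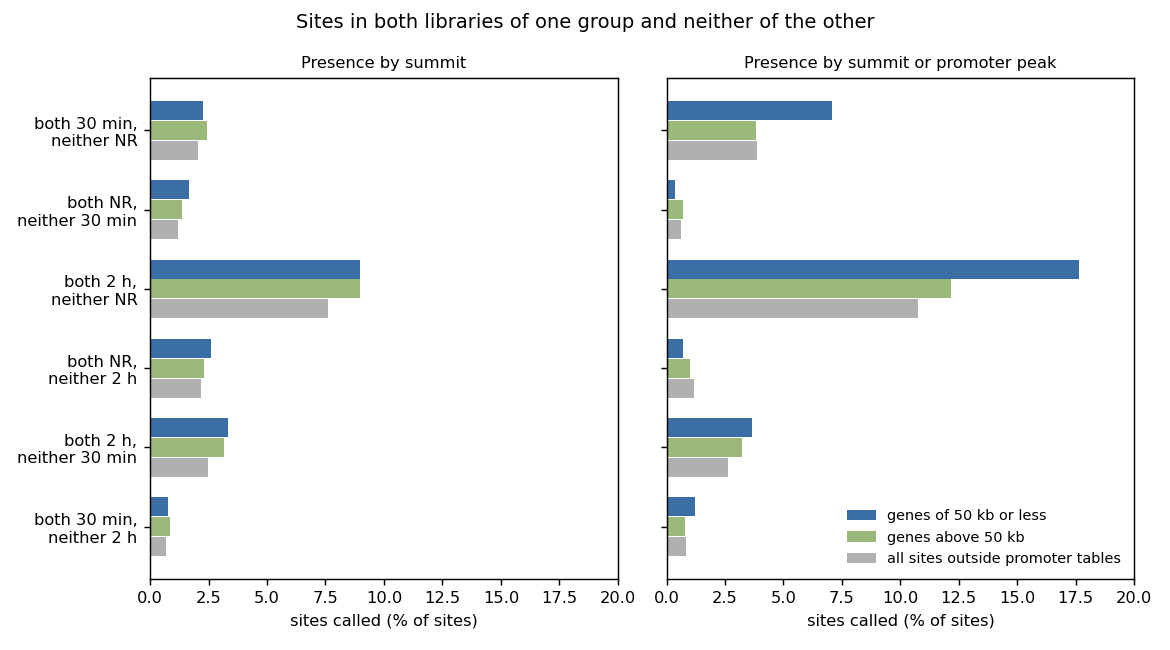
Share of sites (x axis, % of the sites of each class) in both libraries of one group and neither library of the other (rows), for genes of 50 kb or less (blue), genes above 50 kb (green) and all sites outside the promoter tables (grey); presence is by summit on the left and by summit or promoter peak on the right. The share of sites in both 2 h and neither NR library was 8.98% by summit and 17.6% by summit or promoter peak in genes of 50 kb or less.

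At 30 min fewer sites than at 2 h separated the group from NR by this count. A summit in both 30 min and neither NR library was found at 113 sites (2.25%; background 2.03%), and one in both NR and neither 30 min library at 84 (1.68%; background 1.21%). By summit or promoter peak these were 354 (7.06%; background 3.86%) and 19 (0.379%; background 0.618%). The 354 would be 2490 without 30 min replicate 1 and 518 without NR replicate 2, and the 19 would be 40 and 177 without 30 min replicates 1 and 2, and 66 and 95 without NR replicates 1 and 2. The 113 would be 1977 without 30 min replicate 1, 506 without 30 min replicate 2 and 189 without NR replicate 2. The 84 would be 193 and 176 without 30 min replicates 1 and 2, and 241 and 296 without NR replicates 1 and 2. Of the 84 sites, 67 (79.8%) lay inside a promoter peak of at least 1 of the 30 min libraries and 32 inside one in both. Over all 5013 sites, 162 lay inside a promoter peak of 30 min replicate 1 and 1098 inside one of 30 min replicate 2.

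The sites in both 30 min and neither NR library with the highest lower score were in Casp6, Klhl25, Prr7, Mink1, Hk2, Klhl6, Hacd3, Wnt10b, Fgd3 and Havcr2. Casp6, an executioner caspase, had a site at chr3:129904686-129904748 that scored 12.7 and 46.0 at 30 min with no summit in NR; in 2 h replicate 1 it lay inside a promoter peak of 4053 bp. Hk2, the inducible hexokinase of glycolysis, had one at chr6:82740611-82740616, 33840.5 bp into the gene, that scored 9.92 and 17.4 at 30 min with none in NR, and 10.7 and 24.2 at 2 h. Klhl6 and Klhl25, adaptors of cullin ubiquitin ligases, scored 9.52 and 40.6, and 12.5 and 18.6, at 30 min with no summit in NR. Fgd3, an exchange factor for Cdc42, was the exception in time: its site at chr13:49270621-49270755 scored 8.10 and 11.3 at 30 min and had no summit in NR or at 2 h. Hacd3 lacked a summit in 2 h replicate 1, and the other named sites had a summit or a promoter peak in both 2 h libraries. The named sites in both NR and neither 30 min library were in Ptger4, Slc2a1, Asb2, Prdm1 and Sdf4. That of Asb2, a SOCS-box subunit of ubiquitin ligases, lay inside a promoter peak of 5408 bp in 30 min replicate 2 and scored 19.6 and 44.1 in NR. That of Sdf4, a Golgi calcium-binding protein, lay inside a promoter peak of 17683 bp in 30 min replicate 2, and the start of its neighbour Tnfrsf4, which encodes the costimulatory receptor OX40, was 3263 bp away.

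Between the stimulated groups, 168 sites (3.35%; background 2.48%) were in both 2 h and neither 30 min library, and 38 (0.758%; background 0.673%) in both 30 min and neither 2 h library. By summit or promoter peak these were 184 (3.67%; background 2.61%) and 62 (1.24%; background 0.827%). The 184 would be 687 and 454 without 2 h replicates 1 and 2, and 938 without 30 min replicate 2. The 62 would be 99 and 161 without 2 h replicates 1 and 2, and 1185 and 149 without 30 min replicates 1 and 2. The 168 would be 541 without 30 min replicate 2, 785 without 2 h replicate 1 and 753 without 2 h replicate 2; the 38 would be 1231 and 463 without 30 min replicates 1 and 2, and 66 and 87 without 2 h replicates 1 and 2. Of the 168 sites, 58 lay inside a promoter peak of a 30 min library. Cd48, a surface ligand of the SLAM family, had a site at chr1:171684772-171684856 that scored 12.5 and 11.8 at 2 h and had neither a summit nor a promoter peak over it at 30 min or in NR. Slc1a5, the glutamine transporter ASCT2, likewise scored 10.0 and 16.8 at 2 h at chr7:16791190-16791422 and had neither in the other 4 libraries. Some named sites of the 168 had a summit in NR: Tnfrsf13b, the receptor TACI, scored 65.7 and 141.7 at 2 h and lay inside promoter peaks of 2359 and 3545 bp at 30 min, and scored 113.9 in NR replicate 2. Igtp, an interferon-inducible GTPase, scored 13.02 and 21.5 at 2 h, lay inside a promoter peak of 13306 bp in 30 min replicate 2, and scored 22.4 and 14.6 in NR. Spn, the sialoglycoprotein CD43, had the same pattern as Igtp, under a promoter peak of 7326 bp in 30 min replicate 2. Hsp90ab1, Stk16 and Frmd4b were also named, with lower scores of 10.4 to 10.7 at 2 h. In the other direction, Map3k14, the kinase NIK of the alternative NF-kB pathway, scored 19.4 and 139.5 at 30 min with no summit at 2 h, where replicate 2 had a promoter peak of 6153 bp over it; it also scored 19.9 and 68.9 in NR. Dntt, which encodes terminal deoxynucleotidyl transferase, and Trabd had a promoter peak over the site in both 2 h libraries and summits in both NR libraries. Stk16, a serine/threonine kinase, had another site that scored 9.50 and 38.5 at 30 min with neither at 2 h, and 9.59 and 19.1 in NR.

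Gene-body summits were also counted by gene. More gene-body summits in both 2 h than in both NR libraries were found in 417 of 2175 genes (19.2%), beside 19.8% of all genes with a gene-body summit, and fewer in 59 (2.71%; background 2.55%). For 30 min against NR there were 154 genes with more (7.08%; background 7.34%) and 32 with fewer (1.47%; background 1.15%). For 2 h against 30 min there were 116 with more (5.33%; background 5.63%) and 43 with fewer (1.98%; background 1.99%). The shares were close to those of all genes.

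Some genes carried long runs of sites. Dcun1d3, a regulator of cullin neddylation, held the most, 20 sites, with 1 and 3 summits in NR, 7 and 8 at 30 min, and 9 and 9 at 2 h. Cytip, a cytohesin-binding protein of lymphocytes, held 19, with 9 and 9 summits in NR, 5 and 10 at 30 min, and 10 and 8 at 2 h, so its counts overlapped between all groups. Sla, an adaptor that lowers T cell receptor signalling, held 19 too, with 2 and 4 summits in NR, 4 and 8 at 30 min, and 5 and 6 at 2 h. Ccnd2, Icos and Tnfrsf9 held 15 each and Il7r, Irf8 and Klhl6 14 each; 1 further gene known only by a model name held 17. In Ccnd2, cyclin D2 of the G1 phase, the sites with a summit or under a promoter peak numbered 1 and 1 in NR, 2 and 6 at 30 min, and 11 and 15 at 2 h. Its widest promoter peak measured 4504 and 6640 bp in NR, 5229 and 11009 bp at 30 min, and 13476 and 23486 bp at 2 h. In Il7r, the interleukin 7 receptor, the same sites numbered 2 and 2 in NR, 5 and 10 at 30 min, and 6 and 9 at 2 h.

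Genes of the listed groups are given next by counts of their sites. The shares to read them against are those over all 5013 sites: 8.98% in both 2 h and neither NR library and 2.59% the other way, and by summit or promoter peak 17.6% and 0.718%; at 30 min against NR they were 2.25% and 1.68%, and 7.06% and 0.379%. The lists were not tested against these shares. Sites of 1 gene under the same promoter peak count separately, so a single gene can fill much of a list's count by summit or promoter peak.

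Among secreted and membrane-bound cytokines, Tnfsf8 had the most sites. It encodes the ligand of CD30, spans chr4:63832824-63861284 on the minus strand, and held 13 sites. Its summits numbered 0 and 0 in NR, 1 and 1 at 30 min, and 11 and 8 at 2 h, with no overlap between 2 h and the other groups. Of its sites, 6 were in both 2 h and neither NR library; the one at chr4:63842110-63842339 scored 16.2 and 26.3 at 2 h with no summit in NR, and 4.12 and 25.98 at 30 min. The gene had no promoter peak in NR, peaks of 250 and 1932 bp at 30 min, and peaks of 5736 and 5197 bp at 2 h. Of the 26 cytokine and chemokine genes listed, 13 held 47 sites; 10 sites (21.3%) were in both 2 h and neither NR library and 0 the other way, and by summit or promoter peak 15 (31.9%) and 0. Of the 10, 6 were those of Tnfsf8. At 30 min against NR these were 1 and 1, and by summit or promoter peak 4 and 0. Apart from Tnfsf8, the sites in both 2 h and neither NR library were in Tgfb1 (2 sites), which encodes the regulatory cytokine TGF-beta 1, in Fasl, the death ligand, and in Il13, a type 2 cytokine. The Il13 site at chr11:53632394-53632684 scored 4.92 and 6.57 at 2 h and had none in the other 4 libraries. Ifng, the defining Th1 cytokine, held 1 site, which was in no such set.

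**Figure D4:**
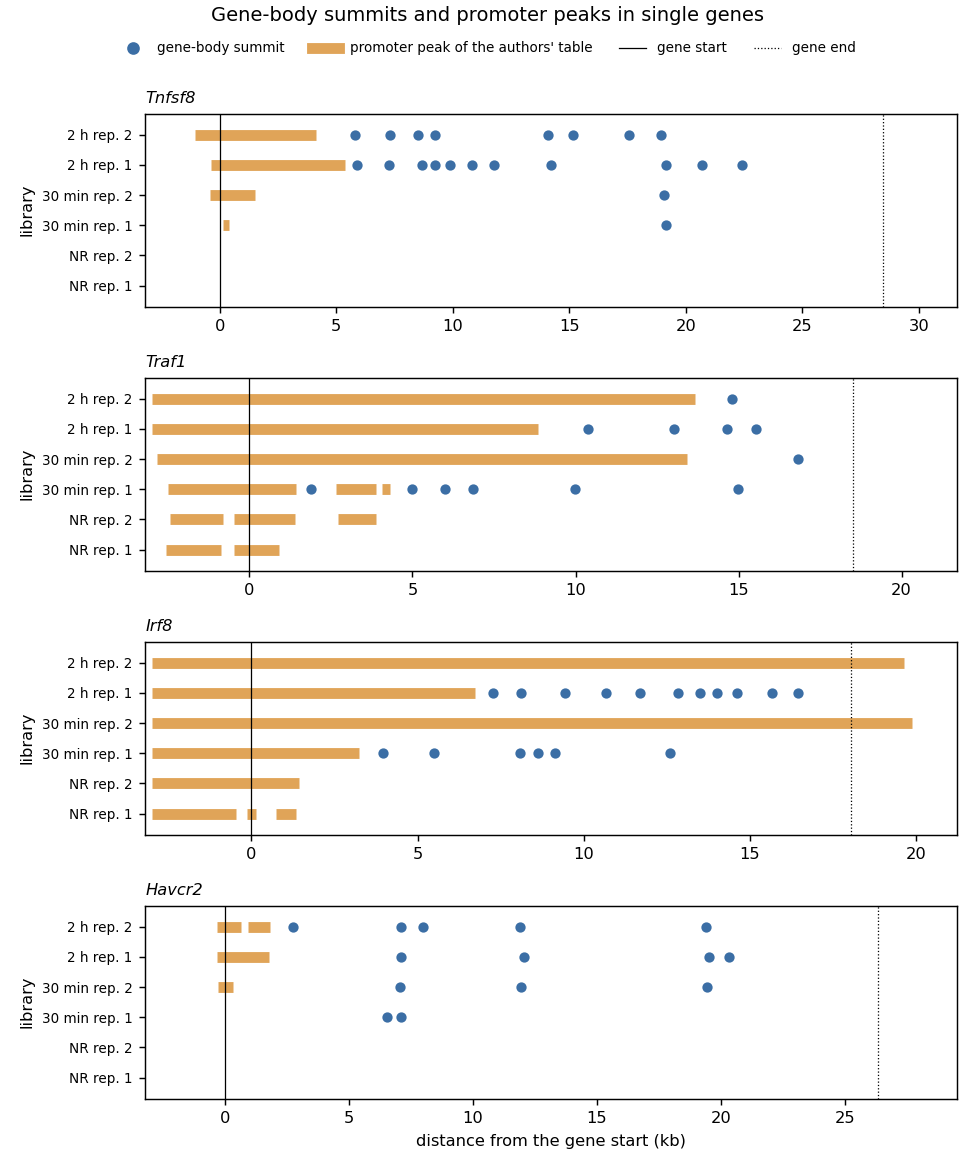
Gene-body summits (blue points) and promoter peaks of the authors' tables (orange bars, drawn to 3 kb beyond the gene) along Tnfsf8, Traf1, Irf8 and Havcr2, in each library (rows, 2 h at the top and NR at the bottom), by distance from the gene start in kb; the solid line is the gene start and the dotted line its end. Tnfsf8 had 11 and 8 summits at 2 h and none in NR, whereas in Irf8 a single promoter peak covered the gene in 30 min replicate 2 and 2 h replicate 2, which had no gene-body summit.

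Activation receptors held 85 sites in 15 of the 20 genes listed, 7 of them (8.24%) in both 2 h and neither NR library and 3 (3.53%) the other way, which is close to the shares over all sites, and by summit or promoter peak 28 (32.9%) and 0. At 30 min against NR these were 1 and 1, and by summit or promoter peak 13 and 0. Havcr2 had 0 and 0 summits in NR, 2 and 3 at 30 min, and 4 and 5 at 2 h, and a promoter peak in both 2 h libraries and 30 min replicate 2 only. Tnfrsf9, the costimulatory receptor 4-1BB, held 0 and 1 of its 15 sites in NR, 5 and 9 at 30 min, and 12 and 12 at 2 h, counted by summit or promoter peak. Its summits alone numbered 11 and 3 at 2 h, where its widest promoter peak measured 5397 and 14740 bp. Of the 28 sites, 8 were in Tnfrsf9. Lag3, an inhibitory receptor, Cd69, an early activation marker, and Tigit held the other sites in both 2 h and neither NR library. Icos, Ctla4 and Cd28, neighbouring receptor genes on chromosome 1, held the 3 sites in both NR and neither 2 h library, all inside promoter peaks of 10558 to 16166 bp at 2 h.

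Of 22 NF-kB genes listed, 15 held 68 sites, 8 of them (11.8%) in both 2 h and neither NR library and 2 the other way, and by summit or promoter peak 30 (44.1%) and 0. At 30 min against NR these were 1 and 1, and by summit or promoter peak 16 and 0. Traf1, an adaptor induced by NF-kB, had sites with a summit or under a promoter peak at 0 and 0 of 9 in NR, 6 and 7 at 30 min, and 8 and 7 at 2 h. Its widest promoter peak measured 1692 and 1895 bp in NR, 3914 and 16237 bp at 30 min, and 11854 and 18302 bp at 2 h. Birc3, an inhibitor of apoptosis, held 3 and 3 of 12 sites in NR, 7 and 11 at 30 min, and 9 and 10 at 2 h by the same count. Tnfaip3, the feedback inhibitor A20, held 0 and 0 of 5 in NR, 1 and 3 at 30 min, and 4 and 5 at 2 h. Rel, which encodes c-Rel, had a site at chr11:23754550-23754645 that scored 14.9 and 45.01 at 2 h with none in NR, and 6.23 and 21.9 at 30 min. Nfkb2 (2 sites), Nfkbiz, Tnip2, Traf1, Traf2 and Bcl2a1d held the others in both 2 h and neither NR library; Bcl2a1d has near-identical copies, so its site is uncertain.

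Transcription factors of activation held 58 sites in 10 of 25 genes, 2 (3.45%) in both 2 h and neither NR library and 3 (5.17%) the other way, and by summit or promoter peak 26 (44.8%) and 1. At 30 min against NR these were 0 and 2, and by summit or promoter peak 13 and 1. Irf8, an interferon regulatory factor, shows how far a promoter peak can reach: it had 0 and 0 summits in NR, 6 and 0 at 30 min, and 11 and 0 at 2 h. By summit or promoter peak it held 0 and 0 of 14 sites in NR, 6 and 14 at 30 min, and 13 and 14 at 2 h. Its widest promoter peak measured 3135 and 4617 bp in NR, 6474 and 23637 bp at 30 min, and 10505 and 23957 bp at 2 h, beside a gene of 18054 bp. In Irf4, another such factor, all 6 sites lay under promoter peaks of 23134 and 24360 bp at 2 h, and 2 and 0 were held in NR. Of the 26 sites, 13 were in Irf8 and 4 in Irf4. The sites of Irf8 all came from summits of 30 min replicate 1 and 2 h replicate 1. The NR libraries could thus hold them only under a promoter peak, so the low counts in NR were in part set by how sites were made. Immediate early genes held 49 sites in 15 of 36 genes, 3 (6.12%) in both 2 h and neither NR library and 1 the other way, and by summit or promoter peak 10 (20.4%) and 1; at 30 min against NR these were 0 and 1, and by summit or promoter peak 11 and 0. Of these, Atf3, a stress-induced factor, held 2 sites in both 2 h and neither of the other 4 libraries, at chr1:191180517-191180700 with scores of 3.59 and 2.55 and at chr1:191181487-191181759 with scores of 4.18 and 3.06. Fosl2, an AP-1 subunit, held 0 and 0 of 11 sites in NR, 4 and 10 at 30 min, and 4 and 7 at 2 h by summit or promoter peak.

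T cell receptor and proximal signalling genes held 72 sites in 12 of 22 genes, 7 (9.72%) in both 2 h and neither NR library and 1 the other way, and by summit or promoter peak 13 (18.1%) and 0. Fyb, an adaptor of integrin signalling, had 5 and 8 summits in NR, 4 and 8 at 30 min, and 5 and 8 at 2 h, so its counts were alike in the 3 groups and higher in each replicate 2. Lcp2, the adaptor SLP-76, held 1 and 2 of 14 sites in NR, 8 and 14 at 30 min, and 7 and 11 at 2 h by summit or promoter peak. Cd2, an adhesion receptor, had 0 and 0 summits at 2 h and 4 and 2 in NR, but all 7 of its sites lay under promoter peaks of 10599 and 22350 bp at 2 h. Cd3e (2 sites), Cd4, Lat, Lck, Plcg1 and Zap70 held the sites in both 2 h and neither NR library. The Th1 programme held 34 sites in 9 of 18 genes, 4 (11.8%) in both 2 h and neither NR library and 1 the other way, and by summit or promoter peak 6 (17.6%) and 0. The single site the other way was in Tbx21, the gene of the Th1 master regulator T-bet; it lay under promoter peaks of 7579 and 4265 bp at 2 h and scored 3.01 and 19.0 in NR. Feedback and mRNA decay regulators held 37 sites in 13 of 25 genes, 3 (8.11%) in both 2 h and neither NR library and 3 (8.11%) the other way, and by summit or promoter peak 12 (32.4%) and 0. The 3 the other way were in Zc3h12a, the ribonuclease Regnase-1, in Sh2d2a and in Dusp4, and all lay under promoter peaks at 2 h.

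Position along the gene differed between the sets of sites. Over all sites the median distance from the gene start was 5037 bp, 30.3% lay within 3 kb of the start, and when each gene was divided into 5 equal parts, these held, from start to end, 30.1%, 25.5%, 19.4%, 15.9% and 8.98%. Sites in all 6 libraries lay deeper in the gene, with a median of 9319 bp and 7.84% within 3 kb of the start, in genes with a median span of 26438 bp against 19457 bp over all sites. Sites in both 2 h and neither NR library had a median of 4974 bp and 28.9% within 3 kb, close to all sites. Those in both NR and neither 2 h library had a median of 3837 bp and 42.3% within 3 kb, and 48.5% lay in the first of the 5 parts. Sites in both NR and neither 30 min library had 51.2% in the first of the 5 parts. These are descriptions: sites of 1 gene share their promoter peak and are not independent. A summit that a widened promoter peak covers is no longer listed. Near a start a site can thus less readily have a summit in all 6 libraries, and more readily one in NR alone. The differences in position were therefore in part set by how presence was counted.

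**Figure D5:**
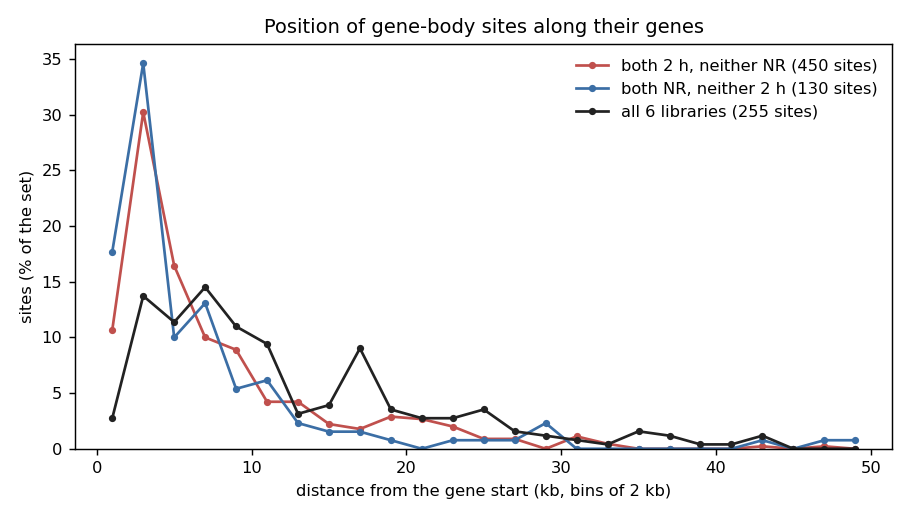
Share of sites (y axis, % of each set) by distance from the gene start (x axis, kb, bins of 2 kb) for the 450 sites in both 2 h and neither NR library (red), the 130 in both NR and neither 2 h library (blue) and the 255 in all 6 libraries (black). The blue set crowds nearest the start, with 42.3% of its sites within 3 kb, and the black set reaches deepest, with a median of 9319 bp. Both positions were in part set by how presence was counted, since a summit under a widened promoter peak is no longer listed.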

How the data were processed

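Pol II was measured by ChIP-seq in 6 libraries of Th1 cells, 2 each for NR, 30 min and 2 h; 3 H3K36me3 libraries and 1 input library of the series were not analysed here. The submitters' processing notes name the build mm10 and the tools BWA 0.7.13, Picard 1.119 and MACS2 2.1.0, without saying which did what. Peaks were called separately in each library, as the deposited lists show. The authors deposited, for each library, a list of summits with a score, which equals the −log10 of the q-value in the table, and a table of promoter peaks, those within 1000 bp of a start. Per the file headers, these tables give for each peak its signal (pileup at the summit), its fold enrichment (a ratio to background), and p-values and q-values as −log10. Scores start at 1.31.

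Genes and spans were those of the 6 tables (the longest span per symbol). Summits were classed, joined within 500 bp and followed as presence or absence in Python 3.11.15 with pandas 2.3.3, numpy 2.4.6 and scipy 1.17.1; the steps were tested on simulated summits of known class. Scores describe and rank summits within a list; named sites were ordered by the lowest of their scores, for description only. The lists hold no read counts outside promoter peaks, so no per-site model was fitted; shares and Jaccard indices had exact permutation tests over libraries. Depth per library is unknown beyond background coverage, and no interval was given. The members, the 22 gene lists and the rules were chosen with earlier results of these data known. Sites named were, per comparison, the 10 (later group) and 5 (earlier group) with the highest lower score, the 10 highest in all 6 libraries, the 10 genes with most sites, and any site in a listed gene; genes with model names were counted, not named, and a few sites are not reported here. Alternatives were another joining distance, a score minimum, equal list lengths, a wider margin, any listed summit near a site, leaving out each library, the replicate as a block and, added later, promoter peaks as presence. Start windows are RefSeq's (GRCm38.p6); 90.9% of matched host genes had a RefSeq end within 100 bp of the tables' end.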

Additional observations from a re-analysis of the deposited data

How the results depend on the processing

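Of the counts of sites under settings other than leaving out a library, 34 stayed within 1.5 times of the value given and 18 did not. The 34 include the counts with the replicate number as a block, which cannot change a count of sites. The share differences kept their direction against NR but shrank to 2.36 (30 min) and 2.20 points (2 h) with a score of at least 5, and to 1.69 and 0.949 points with equal list lengths (exact permutation p = 0.667 each), where the groups overlapped; the Jaccard difference was 0.0220 with a score of at least 5. Joining within 1000 bp gave 54 sites in both NR and neither 30 min library. A score of at least 5 left 2918 sites, with 52 (30 min) and 215 (2 h) in both stimulated and neither NR library, 54 and 78 the other way, and 82 and 17 for 2 h and 30 min against each other. Equal list lengths of 15330 left 2211 sites. Of these, 146 were in both 2 h and neither NR library and 102 the other way. For 30 min against NR these counts were 99 and 49, and for 2 h against 30 min 66 and 44. Counting summits or promoter peaks gave 507 sites in all 6 libraries, 354 and 884 in both stimulated and neither NR library, 19 and 36 the other way, and 62 in both 30 min and neither 2 h library. The difference in share between 2 h and 30 min reversed to -0.166 points with a score of at least 5, -0.744 with equal list lengths, -0.0737 with a margin of 2000 bp, -1.95 without 30 min replicate 1 and -0.0462 without 2 h replicate 2; that of the Jaccard index reversed to -0.0307 without NR replicate 1. The cause was not tested.

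Leaving out each library in turn gave 111 to 1977 sites in both 30 min and neither NR library, 84 to 296 the other way, 439 to 1460 in both 2 h and neither NR library, 129 to 378 the other way, 169 to 785 in both 2 h and neither 30 min library and 38 to 1231 the other way; a single library is assumed to stand for its group. The number of sites ran from 3933 to 4922 and of sites in all remaining libraries from 262 to 309. The share differences ran from 2.15 to 6.36 points (30 min minus NR), 3.53 to 5.28 (2 h minus NR) and -1.95 to 2.26 (2 h minus 30 min), and the Jaccard difference from -0.0307 to 0.126. With the replicate number as a block, the counts (113, 84, 450, 130, 168 and 38) and the share differences (4.25, 4.40 and 0.152 points) were the same, as a block cannot change them. Same-numbered libraries deviated together with correlations of 0.115, 0.0457 and 0.180, so the numbers were not taken as pairs. These correlations do not show that the replicate number plays no part, as replicate 2 was the deeper library of each group.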

Other observations

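Ribosomal protein genes had 48 sites in 25 of 78 listed genes, 7 of them in both 2 h and neither NR library and 0 the other way, and by summit or promoter peak 19 and 0. These genes have many near-identical pseudogene copies, so their sites are uncertain. Their summits numbered 1 and 4 in NR, 4 and 21 at 30 min, and 28 and 16 at 2 h. Translation factors had 37 sites in 15 of 25 genes (7 and 0, and by summit or promoter peak 15 and 0); Eif4g2, a translation initiation factor, had a site at chr7:111069784-111070259 that scored 10.4 and 18.8 at 2 h with none in NR, and 3.68 and 39.1 at 30 min. Ribosome biogenesis genes had 24 sites in 9 of 24 genes (2 and 0, and 12 and 0), with summits at 0 and 0 in NR, 0 and 13 at 30 min, and 13 and 9 at 2 h; in Ncl, which encodes nucleolin, 0 and 0 of 7 sites were held in NR, 0 and 4 at 30 min, and 5 and 7 at 2 h by summit or promoter peak. Chaperones had 35 sites in 17 of 26 genes (6 and 1, and 12 and 0), splicing factors and hnRNPs 74 in 24 of 34 (3 and 0, and 14 and 0), and glycolysis genes 40 in 12 of 19 (6 and 3, and 12 and 1). The shares over all 5013 sites were 8.98% in both 2 h and neither NR library and 2.59% the other way, and 17.6% and 0.718% by summit or promoter peak; the lists were not tested against them.

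Interferon response and antigen presentation genes had 34 sites in 13 of 31 genes, 3 (8.82%, beside 2.25% of all sites) in both 30 min and neither NR library and 1 the other way, which was in Igtp, and 2 in both 2 h and neither NR library and 0 the other way. By summit or promoter peak these were 5 and 0 at 30 min and 3 and 0 at 2 h. Gbp4, an interferon-inducible GTPase, held 2 of the 3, which were also absent at 2 h: its site at chr5:105136453-105136667 scored 5.02 and 6.27 at 30 min with no summit at 2 h or in NR, and the one at chr5:105130354-105130589 scored 3.60 and 5.69. The third was in Irf9, a subunit of the interferon-activated factor ISGF3, at chr14:55607585-55607936, which scored 3.19 and 12.5 at 30 min with none at 2 h or in NR. All 3 sites lay outside every promoter peak.

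Quiescence genes had 41 sites in 9 of 17 genes, 2 in both 2 h and neither NR library and 3 the other way, and by summit or promoter peak 6 and 2. Cytoskeleton and housekeeping genes had 17 sites in 8 of 21 genes, 0 in both 2 h and neither NR library by summit and 1 by summit or promoter peak. Nuclear long noncoding RNA genes had 6 sites in 2 of 15 genes and histone genes 1 site, in H3f3a, which had a summit in all 6 libraries.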
